A study of Mus musculus with 8 samples.

Results

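The genes described here are 10 genes of the major histocompatibility complex (MHC) class I presentation pathway, followed across 8 Lewis lung carcinoma (LLC) tumors. They are H2-K1 and H2-D1, B2m, Tap1, Tap2, Tapbp, Psmb8, Psmb9, Psmb10 and Nlrc5. They were taken by symbol from a given list, each matched 1 gene identifier, and they make up 10 of the 55487 genes of the count table. Of the 10, H2-K1, H2-D1, Tap1, Tap2, Tapbp, Psmb8 and Psmb9 lie on chromosome 17 within the mouse MHC, B2m lies on chromosome 2, and Psmb10 and Nlrc5 lie on chromosome 8. LLC is a mouse lung carcinoma line, here injected subcutaneously into syngeneic C57BL/6J females bought at 6 to 8 weeks of age, and RNA was extracted from whole tumors at day 12. The 4 wild-type tumors carried LLC cells labelled wild-type and the 4 ΔAgo2 tumors carried Ago2 knock-out LLC cells, with no treatment named for either group. Ago2 was knocked out with a guide delivered by a lentivirus under puromycin selection, single cells were sorted, and 1 clone was chosen for engraftment. Traits of that clone and loss of Ago2 therefore cannot be told apart. Each tumor is a separate biological replicate, and all libraries carry batch label 1. Host cells within the ΔAgo2 tumors kept Ago2, since the mice were C57BL/6J animals with no Ago2 allele named.

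Class I molecules display peptides from proteins made inside the cell to CD8 T cells. Proteasomes cut these proteins, and Psmb8, Psmb9 and Psmb10 encode the catalytic subunits that replace the constitutive ones in the immunoproteasome. Tap1 and Tap2 form the transporter that carries the peptides into the endoplasmic reticulum, where Tapbp (tapasin) holds the transporter close to an empty class I molecule. H2-K1 and H2-D1 encode the classical heavy chains of this mouse strain, and B2m encodes the light chain, beta-2 microglobulin, that every class I heavy chain pairs with. Nlrc5 encodes the transactivator that switches on most of these genes, and interferon-gamma raises the whole set in many cell types. Tumors often lower this pathway, which hides them from CD8 T cells.

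Total counts ran from 7903288 in wild-type tumor 4 to 268564145 in ΔAgo2 tumor 4. A count of 0 therefore allowed up to 0.38 counts per 1e+06 of the unscaled total in the shallowest library and 0.0112 in the deepest, for counting error only. CPM below are counts per 1e+06 of the library total, scaled by TMM, so these floors differ somewhat on the CPM scale. The Ago2 transcript does not check the labels. It stood at 129.9, 195, 151.3 and 138 CPM in the wild-type group (tumors 1 to 4) and at 118, 355, 215 and 270.1 CPM in the ΔAgo2 group (tumors 1 to 4), a log2 fold change of 0.64 (edgeR adjusted p 0.205). Without ΔAgo2 tumor 1 it was called higher in the tumors labelled knock-out (0.85, edgeR adjusted p 0.0441), also with the GC trend of the counts removed (0.79, edgeR adjusted p 0.0422). The paper assessed Ago2 protein in wild-type and ΔAgo2 LLC cells by Western blot. A transcript level is not a protein level, and protein was not measured here. Directions are given as the labels name the groups. Of the markers of lung epithelium, Nkx2-1 was at 0 in all libraries and Sftpc and Sftpb were at or near 0. Epcam stood at 0.736 to 4.36 CPM and Cdh1 at 2.44 to 14.0 CPM, whereas the keratins Krt8 and Krt18 stood at 231 to 845 CPM. In whole tumors fewer cells of a type and less RNA per cell cannot be told apart, and class I transcripts of cancer cells and host cells are summed.

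None of the 10 presentation genes differed between genotypes past the threshold, an adjusted p under 0.05 by the quasi-likelihood test of edgeR, adjusted after Benjamini and Hochberg over 16061 genes. Of all genes tested 3.49% were called. All 10 log2 fold changes were above 0, from 0.15 (Tap2) to 0.99 (B2m). Their median was 0.38, where the median over all genes tested was 0.04 and 52.5% of all genes were above 0. At an unadjusted p under 0.05 there was 1 of the 10, B2m, against 26.7% of all genes. In none of the 10 did the 4 CPM values of 1 genotype lie apart from those of the other, against 16.4% of all genes.

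ΔAgo2 tumor 1 stood out from the rest. It held the highest CPM of all 8 tumors for 9 of the 10 genes, where 16.1% of all genes tested peaked in it. Wild-type tumor 3 held the lowest of the 8 values for 9 of the 10, where 7.35% of all genes tested were lowest in it. The exceptions were Nlrc5, which peaked in ΔAgo2 tumor 2, and B2m, which was lowest in wild-type tumor 2.

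**Figure D1:**
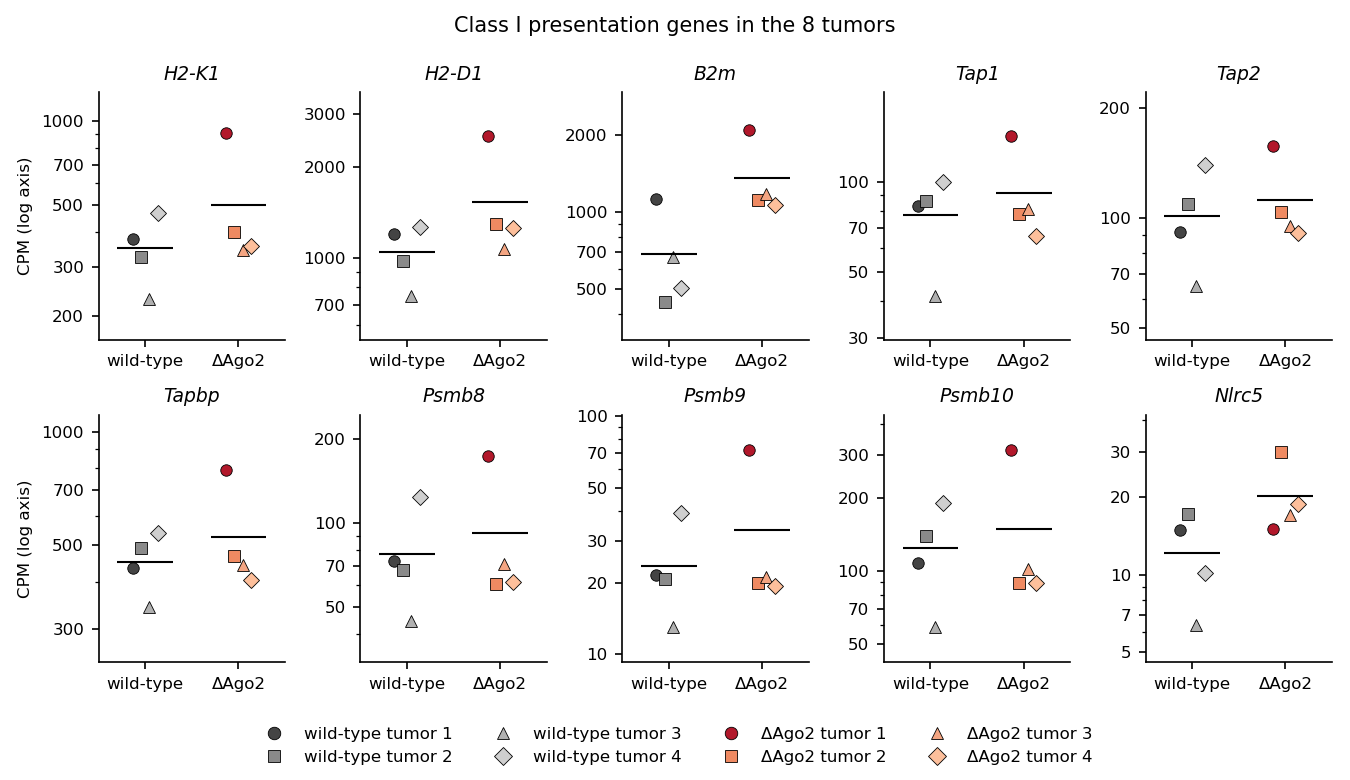
CPM of each of the 10 genes (log axis) in the 4 wild-type tumors (grey) and the 4 ΔAgo2 tumors (red), with 1 symbol per tumor and the group mean as a horizontal line. ΔAgo2 tumor 1 (dark red circle) is the highest point in every panel but that of Nlrc5, and the other 3 ΔAgo2 tumors lie within the wild-type range or at its edge for most genes.

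The classical heavy chains and B2m form the complex that shows the peptide. The promoter windows of these genes and of Tap1, which all peaked in the same tumor, are shown so that the patterns they hold can be compared. Tapbp, Psmb8, Psmb9 and Psmb10 peaked in that tumor too and have windows, which are not printed here. Each window runs from 250 bases before to 50 bases after a RefSeq start site (build GRCm38.p6), and capitals mark matches to GAAANNGAA and GAANNGAAA (patterns of interferon regulatory factor type), TTCNNNGAA (a pattern of the interferon-gamma activated type), ATTGG (the CCAAT box) and GGGATTCC (a pattern of NF-kappaB type), on either strand. The H2-K1 window is chr17:34000298-34000597 on the minus strand, 1 of 2 listed for this gene. The others are chr17:35262844-35263143 (H2-D1), chr2:122147437-122147736 (B2m) and chr17:34187306-34187605 (Tap1), all on the plus strand.
H2-K1: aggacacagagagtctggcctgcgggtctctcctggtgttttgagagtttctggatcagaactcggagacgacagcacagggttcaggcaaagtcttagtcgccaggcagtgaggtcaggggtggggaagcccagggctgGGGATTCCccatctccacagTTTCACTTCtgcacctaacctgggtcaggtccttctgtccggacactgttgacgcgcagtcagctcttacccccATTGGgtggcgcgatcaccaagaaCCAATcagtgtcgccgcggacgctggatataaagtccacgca
H2-D1: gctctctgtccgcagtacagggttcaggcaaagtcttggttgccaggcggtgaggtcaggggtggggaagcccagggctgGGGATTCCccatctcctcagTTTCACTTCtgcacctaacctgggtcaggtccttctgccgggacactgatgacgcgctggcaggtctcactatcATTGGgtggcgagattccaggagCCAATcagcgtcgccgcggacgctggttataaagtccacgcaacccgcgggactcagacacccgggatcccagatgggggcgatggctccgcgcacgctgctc
B2m: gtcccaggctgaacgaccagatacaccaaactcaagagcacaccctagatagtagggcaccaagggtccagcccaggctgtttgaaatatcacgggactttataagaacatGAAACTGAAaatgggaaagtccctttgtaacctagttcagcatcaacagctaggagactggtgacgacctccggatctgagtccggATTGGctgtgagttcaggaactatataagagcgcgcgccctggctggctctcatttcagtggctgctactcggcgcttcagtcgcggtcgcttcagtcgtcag
Tap1: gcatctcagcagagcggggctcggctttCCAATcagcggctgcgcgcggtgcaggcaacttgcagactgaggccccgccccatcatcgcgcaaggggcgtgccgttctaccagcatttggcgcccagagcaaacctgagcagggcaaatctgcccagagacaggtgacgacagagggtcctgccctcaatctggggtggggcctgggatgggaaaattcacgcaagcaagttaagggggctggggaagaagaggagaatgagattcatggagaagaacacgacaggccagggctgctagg

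The H2-K1 and H2-D1 windows were 89.5% identical over 214 of 239 aligned bases. Both held GGGATTCC, then GAANNGAAA on the other strand, then a CCAAT box in each orientation. The B2m window held GAAANNGAA and 1 CCAAT box, and the Tap1 window held 1 CCAAT box. Windows were available for 8 of the 10 genes, with none for Tap2 or Nlrc5. A CCAAT box lay in 6 of the 8 and TTCNNNGAA in the Psmb8 window. Outside the H2-K1, H2-D1 and B2m windows none held GAAANNGAA or GAANNGAAA, and GGGATTCC lay only in the H2-K1 and H2-D1 windows. Only these exact letters were searched, so other forms of such sites, in the B2m window too, were not counted. The Tap1 and Psmb9 windows overlap by 275 bases, and the CCAAT box counted for each is the same stretch of DNA. The Psmb10 window held none of these patterns. Over 32851 promoter windows of the same length, the shares with a match were 37.4% for ATTGG, 8.56% for GAAANNGAA, 8.3% for TTCNNNGAA, 7.52% for GAANNGAAA and 1.06% for GGGATTCC. The last pair of patterns was added after these sequences had been seen. A match is a match of letters, and binding was not measured.

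H2-K1 (ENSMUSG00000061232.16, chr17:33996017-34000347, GRCm38) stood at 377, 328, 231 and 469 CPM in the wild-type group (tumors 1 to 4) and at 907, 401, 347 and 358 CPM in the ΔAgo2 group (tumors 1 to 4). The first ΔAgo2 tumor was 2.46 times the mean of the other ΔAgo2 tumors, and these lay within the wild-type range. The wild-type mean was 351 ± 99.3 CPM (SD, n = 4) and the ΔAgo2 mean 503 ± 270.2 CPM (SD, n = 4). On the log2 scale H2-K1 had a difference of 0.52 in edgeR (SE 0.35, adjusted p 0.345). With ΔAgo2 tumor 1 left out it was 0.06 with an edgeR adjusted p of 0.870.

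H2-D1 (ENSMUSG00000073411.11, chr17:35262730-35267499) ranked the tumors of each genotype in the same order as H2-K1. Its values were 1194, 979, 749.7 and 1266 CPM in the wild-type tumors and 2520.4, 1291, 1070.4 and 1252 CPM in the ΔAgo2 tumors, a mean of 1047 ± 233 CPM (SD, n = 4) against 1533 ± 665 CPM (SD, n = 4). ΔAgo2 tumors 2 and 4 stood near the highest wild-type value and ΔAgo2 tumor 3 lay within the wild-type range. The genotype difference for H2-D1 came to 0.55 log2 units (SE 0.31, edgeR adjusted p 0.265), and without ΔAgo2 tumor 1 it was 0.19 (adjusted p 0.541). Of the 100-base windows of its longest transcript, 4.64% occur word for word in another gene, mostly other class I genes such as H2-Q1 and H2-T23, so a few of its reads could have been assigned to relatives. No such window was found for H2-K1.

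B2m (ENSMUSG00000060802.8, chr2:122147686-122153083) had the highest fold change of the 10. It stood at 1121, 445, 669 and 508 CPM in the wild-type tumors and at 2098, 1113, 1179 and 1063 CPM in the ΔAgo2 tumors. Only wild-type tumor 1 reached into the ΔAgo2 range, and the other 3 wild-type tumors lay below every ΔAgo2 tumor. It averaged 686 ± 305 CPM (SD, n = 4) in wild-type and 1363 ± 492 CPM (SD, n = 4) in ΔAgo2 tumors. In edgeR the difference was 0.99 log2 units (SE 0.34, adjusted p 0.110), and its 95% interval ran from 0.24 to 1.74. Without ΔAgo2 tumor 1 the difference was 0.70 with an edgeR adjusted p of 0.131. B2m passed the threshold without wild-type tumor 1 (1.35, edgeR adjusted p 0.0496, where 4.05% of all genes were called) and in the DESeq2 Wald test (0.98, adjusted p 0.0435, where 14.2% of all genes were called). No other of the 10 genes passed in either fit.

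The genes of peptide transport and loading had the smallest fold changes of the 10. Tap1 (ENSMUSG00000037321.17, chr17:34187553-34197225), 1 chain of the transporter, stood at 83.0, 86.0, 41.6 and 99.6 CPM in the wild-type tumors and at 142, 77.9, 81.2 and 66.0 CPM in the ΔAgo2 tumors. Apart from ΔAgo2 tumor 1, the ΔAgo2 values lay between the lowest wild-type tumor and the second lowest. On the log2 scale Tap1 had a difference of 0.24 in edgeR (SE 0.31, adjusted p 0.631). Tap2 (ENSMUSG00000024339.12, chr17:34203527-34216321), the partner chain, stood at 91.7, 109, 64.9 and 139 CPM in the wild-type tumors and at 157.7, 104, 95.04 and 91.1 CPM in the ΔAgo2 tumors. Here wild-type tumor 4 came close to ΔAgo2 tumor 1, and the ranges overlapped over most of their width. The genotype difference for Tap2 came to 0.15 log2 units (SE 0.27, edgeR adjusted p 0.749).

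Tapbp (ENSMUSG00000024308.15, chr17:33915899-33929292), which bridges the transporter and class I, stood at 436, 491, 343 and 538 CPM in the wild-type tumors and at 793, 468, 444 and 404 CPM in the ΔAgo2 tumors. Its spread among wild-type tumors was the smallest of the 10, with the highest 1.57 times the lowest. In edgeR the difference was 0.22 log2 units (SE 0.26, adjusted p 0.597). Without ΔAgo2 tumor 1 the log2 fold changes of Tap1, Tap2 and Tapbp were -0.06, -0.07 and -0.05, and Tap2 was also at -0.01 without wild-type tumor 3. Exons of all 3 overlap exons of neighbors, with 212 bases for Tap1 and Psmb9 on opposite strands and a shorter stretch for Tapbp and Zbtb22 on the same strand, and the strand setting of the counting is not given in the sources used here.

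The immunoproteasome subunits stood farther apart in ΔAgo2 tumor 1 from the other ΔAgo2 tumors than the other 7 of the 10 genes did. This was not particular to them. The constitutive subunits Psmb5, Psmb6 and Psmb7 also peaked in that tumor, at 2.64, 2.31 and 1.58 times the mean of the other ΔAgo2 tumors. Psmb8 (ENSMUSG00000024338.15, chr17:34197721-34201454) stood at 73.3, 67.8, 44.5 and 124 CPM in the wild-type tumors and at 175, 60.7, 71.5 and 61.8 CPM in the ΔAgo2 tumors. Psmb9 (ENSMUSG00000096727.3, chr17:34181987-34187764) stood at 21.5, 20.6, 13.0 and 39.1 CPM in the wild-type tumors and at 72.2, 19.8, 21.04 and 19.3 CPM in the ΔAgo2 tumors. Psmb10 (ENSMUSG00000031897.9, chr8:105935735-105938444) stood at 108, 139, 59.1 and 190.4 CPM in the wild-type tumors and at 312, 89.0, 102 and 89.2 CPM in the ΔAgo2 tumors. For all 3 the highest tumor was ΔAgo2 tumor 1 and the next was wild-type tumor 4, while ΔAgo2 tumors 2 to 4 lay close together, inside the wild-type range. ΔAgo2 tumor 1 stood at 2.70, 3.60 and 3.35 times the mean of the other ΔAgo2 tumors for Psmb8, Psmb9 and Psmb10. The log2 fold changes were 0.26, 0.50 and 0.26, with standard errors of 0.40, 0.48 and 0.46 and edgeR adjusted p-values of 0.703, 0.509 and 0.743. Without ΔAgo2 tumor 1 all 3 were below 0, at -0.26, -0.22 and -0.42, with edgeR adjusted p-values of 0.551, 0.639 and 0.386.

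Nlrc5 (ENSMUSG00000074151.13, chr8:94434356-94527272), the transactivator of the pathway, did not peak in the same tumor as the other 9 genes. It stood at 14.9, 17.2, 6.41 and 10.2 CPM in the wild-type tumors and at 15.1, 29.9, 17.1 and 18.8 CPM in the ΔAgo2 tumors. ΔAgo2 tumor 1, highest for the other 9 genes, was the lowest ΔAgo2 tumor for Nlrc5, at 0.689 times the mean of the others. This was not particular to Nlrc5. The pathway genes Lnpep, Tpp2 and Jak1, chosen after their values had been seen, stood there at 0.472, 0.436 and 0.464 times that mean. Of the 53 other pathway genes tested, 20 peaked in that tumor. Nlrc5 averaged 12.2 ± 4.83 CPM (SD, n = 4) in wild-type and 20.2 ± 6.63 CPM (SD, n = 4) in ΔAgo2 tumors. On the log2 scale Nlrc5 had a difference of 0.73 in edgeR (SE 0.33, adjusted p 0.191), with a 95% interval from -0.01 to 1.47. Leaving out ΔAgo2 tumor 1 gave 0.83 with an edgeR adjusted p of 0.125.

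Leaving out ΔAgo2 tumor 1 took away the common direction. The median log2 fold change of the 10 genes was then -0.05, where that of all genes was 0.00, and 4 of the 10 were above 0. By edgeR 0 of the 10 were called, against 11.0% of all genes. With limma voom and sample quality weights the median was 0.09 and 8 of the 10 were above 0, with 0 of 10 called against 27.9% of all genes.

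The base composition of the transcripts also separated B2m from the rest. Its longest transcript held 41.2% G and C, where the other 9 genes held 52.5% to 57.1%. When each library's trend of counts on GC content was removed, the fold change of B2m fell to 0.53 with an edgeR adjusted p of 0.399, while those of the other 9 rose, to between 0.44 (Psmb8) and 0.97 (Nlrc5). The median of the 10 was then 0.71, against 0.07 over all genes. None of the 10 was called, against 3.62% of all genes, and 6 of 10 had an unadjusted p under 0.05, against 21.2%. The lowest edgeR adjusted p-values were 0.0616 for Tap2, 0.0726 for Tapbp and 0.0759 for H2-D1.

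With the GC trend removed and ΔAgo2 tumor 1 left out, a combination chosen after the data had been seen, all 10 log2 fold changes were at or above 0, from 0.00 (Psmb8) to 1.11 (Nlrc5), with a median of 0.47. Tap2 and Tapbp were called in this fit, both at 0.54 and with edgeR adjusted p-values of 0.0433 and 0.0463. That is 2 of 10, where 12.6% of all genes were called. B2m stood at 0.08 there.

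**Figure D2:**
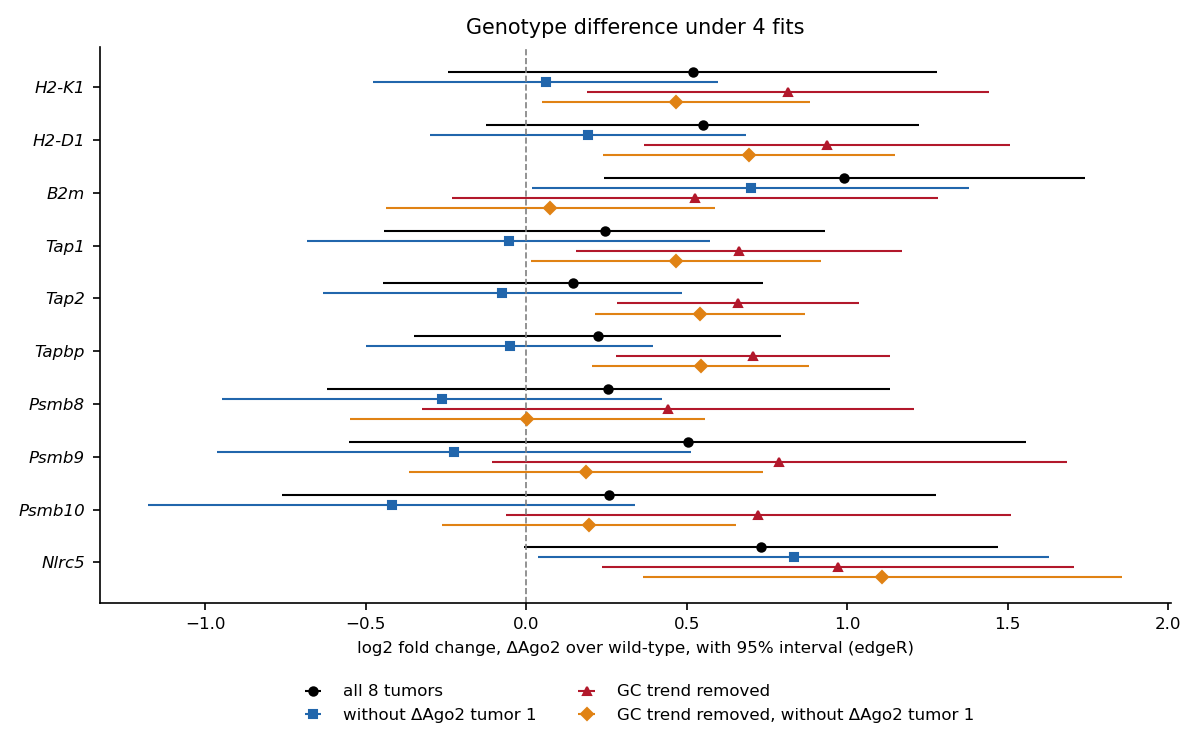
Log2 fold change of ΔAgo2 over wild-type tumors (horizontal axis) for each of the 10 genes, with 95% intervals as lines, in 4 edgeR fits. Leaving out ΔAgo2 tumor 1 (blue squares) moved 6 genes below 0, and removing the GC trend (red triangles) lowered B2m and raised the other 9.

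The deposited TPM scale divides by gene length, which does not change how tumors compare for 1 gene. It also scales each library differently from CPM, which does change that. On the TPM scale the separation of B2m was clearer. Its values were 3717, 1474, 2241 and 1190.1 TPM in the wild-type tumors and 5351, 4740.0, 4324 and 4202 TPM in the ΔAgo2 tumors, so the groups did not overlap. H2-K1 was also apart, at 366, 318, 227 and 322 TPM against 677, 499, 372 and 415 TPM, though its highest wild-type and lowest ΔAgo2 tumors were close. On this scale 2 of the 10 genes had groups that did not overlap, against 11.6% of all genes. Limma on log2(TPM + 1) gave 1.24 with an adjusted p of 0.0981 for B2m and 0.65 with an adjusted p of 0.175 for H2-K1. The median over all genes was itself 0.21 on this scale, so relative to it the differences were smaller than these values.

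Levels within the pathway were compared per length, in TPM. Averaged over the wild-type tumors (± SD, n = 4), B2m was the most abundant at 2156 ± 1131 TPM, followed by H2-D1 at 1057 ± 202, Tapbp at 325 ± 49.6 and H2-K1 at 308 ± 58.6 TPM. Psmb10 stood at 184 ± 60.7, Tap2 at 68.7 ± 13.9, Psmb8 at 57.7 ± 14.9, Tap1 at 36.6 ± 10.4, Psmb9 at 16.1 ± 4.65 and Nlrc5 at 3.84 ± 1.82 TPM. Neighbors in this order kept it in all 8 tumors, except that Tapbp was above H2-K1 in 3 of 8 tumors and Tap2 above Psmb8 in 7 of 8. Tapbp and H2-K1 were thus not separable beyond their spread. Messenger RNA of the light chain stood at 0.908 to 2.57 times the sum of H2-K1 and H2-D1 in the 8 tumors.

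Ratios of paired genes within a tumor do not depend on how libraries were scaled. The immunoproteasome subunits were compared with the constitutive subunits they replace, Psmb8 with Psmb5, Psmb9 with Psmb6 and Psmb10 with Psmb7. The log2 ratio of Psmb8 to Psmb5 was -1.70, -2.17, -2.13 and -1.81 in the wild-type tumors and -1.64, -1.48, -1.56 and -1.93 in the ΔAgo2 tumors. The ΔAgo2 tumors were mostly higher, but ΔAgo2 tumor 4 lay among the wild-type tumors. The log2 ratio of Psmb10 to Psmb7 was 0.77, 2.35, -0.07 and 2.62 in the wild-type tumors and 1.34, 0.25, 0.40 and 0.10 in the ΔAgo2 tumors. Wild-type tumors 2 and 4 were high and wild-type tumor 3 was the lowest of the 8. The SD of this ratio among the wild-type tumors was 1.28 (n = 4), the largest of the 5 ratios.

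The mean differences, ΔAgo2 minus wild-type, were 0.30 for Psmb8 to Psmb5, 0.42 for Psmb9 to Psmb6 and -0.90 for Psmb10 to Psmb7. They were 0.09 for Tap1 to Tap2 and 0.55 for B2m to the sum of H2-K1 and H2-D1. The GC trend was not removed from these ratios. The B2m transcript held 41.2% G and C, against 54.3% for H2-K1 and 55.9% for H2-D1. Over the 70 assignments of the exact permutation test (two-sided) the lowest of the 5 p-values was 0.114, for Psmb8 to Psmb5, and the values adjusted over the 5 ratios were 0.357 to 0.543. None of the 5 differences passed the threshold, and the groups overlapped in each. The smallest p that this design allows is 0.0286. Tap1 and Tap2 kept the narrowest ratio, from 0.442 to 0.625 over the 8 tumors.

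**Figure D3:**
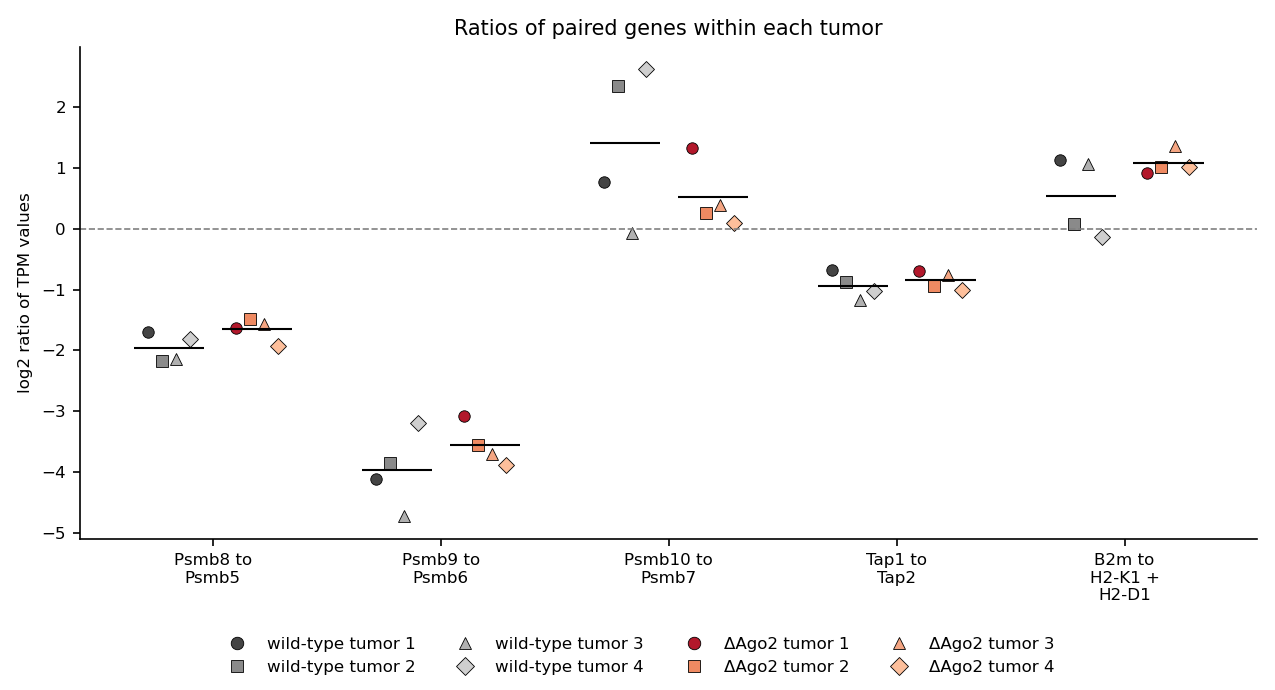
Log2 ratio of TPM values (vertical axis) for 5 pairs of genes in each wild-type tumor (grey) and each ΔAgo2 tumor (red), with group means as lines. The groups overlap for all 5 ratios, and Psmb10 to Psmb7 varies most among the wild-type tumors.

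The tumor with the highest class I values was also the one with the most T cell transcript. Summed over 5 T cell markers, CPM was 12.3, 9.06, 4.62 and 12.8 in the wild-type tumors and 26.2, 4.74, 7.58 and 4.74 in the ΔAgo2 tumors, and all 5 markers were highest in ΔAgo2 tumor 1. Over 6 CD8 and cytotoxic markers the sums were 26.0, 14.5, 11.2 and 18.9 and 48.2, 23.6, 24.6 and 22.1 CPM, again with all 6 highest in ΔAgo2 tumor 1. No T cell, CD8 or natural killer (NK) cell marker was at 0 in any tumor and none was called between genotypes. NK cell markers summed to 2.44 to 7.21 CPM in the wild-type and 6.68 to 12.1 CPM in the ΔAgo2 tumors. Ifng, which encodes interferon-gamma, was near its detection limit, with 2 to 9 counts in the wild-type tumors and 6 to 35 in the ΔAgo2 tumors. It stood at 0.112, 0.0953, 0.189 and 0.717 CPM in the wild-type tumors and at 0.718, 0.175, 0.179 and 0.102 CPM in the ΔAgo2 tumors, highest in ΔAgo2 tumor 1 and, from 5 counts, wild-type tumor 4. The part of these cells in the class I values was not tested.

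Markers of muscle and skin also differed between tumors. In wild-type tumor 3 skeletal muscle markers summed to 2965 CPM. Their sums were 196 to 413 CPM in the other wild-type and 33.4 to 162 CPM in the ΔAgo2 tumors, so the genotypes did not overlap. The log2 fold changes of the 5 muscle markers were -3.33 to -2.50, and none was called by edgeR (lowest adjusted p 0.0628). Keratinocyte markers summed to 8.74 CPM in wild-type tumor 3 and to between 142 and 798 CPM in the other 7 tumors. Of these markers Krt10, a keratin of differentiated epidermis, was called higher in ΔAgo2 tumors (2.06, edgeR adjusted p 0.0460). Macrophage and monocyte markers ran from 436 to 597 CPM in the wild-type and from 379.9 to 517 CPM in the ΔAgo2 tumors. Summed pan-leukocyte markers ran from 462 to 906 and from 433 to 840.0 CPM. Both sets of ranges overlapped, but single pan-leukocyte markers differed in sign. Ptprc (CD45) stood at 33.1, 23.1, 25.8 and 13.9 CPM in the wild-type tumors and at 35.5, 83.6, 40.9 and 49.6 CPM in the ΔAgo2 tumors, with no overlap, and its log2 fold change was 1.12 (edgeR adjusted p 0.0785). Coro1a, a large contributor to the sum, had -0.87 (edgeR adjusted p 0.263). Without wild-type tumor 3 the median log2 fold change of the 10 genes was 0.21, and 9 of 10 were above 0. The part of muscle or skin tissue in these values was not tested.

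**Figure D4:**
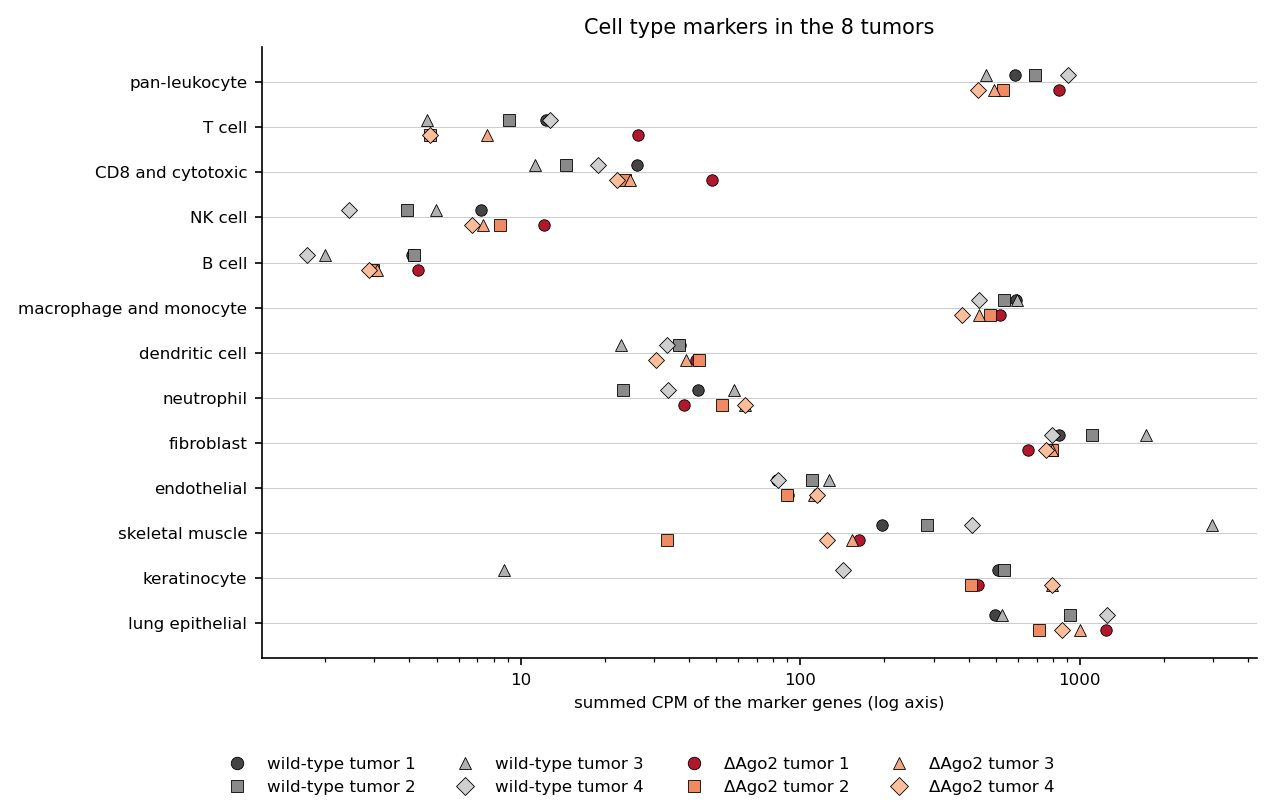
Summed CPM of the markers of 13 cell types (horizontal log axis) in each tumor, with wild-type tumors (grey) above and ΔAgo2 tumors (red) below each line. ΔAgo2 tumor 1 is highest for T cell and for CD8 and cytotoxic markers, and wild-type tumor 3 stands apart for skeletal muscle and keratinocyte markers.

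Beyond the 10 genes, 59 other genes of the pathway were examined in 5 lists, of which 53 passed the count filter. By edgeR 0 of the 53 were called and 15 had an unadjusted p under 0.05, where 3.49% and 26.7% of all genes were. Their median log2 fold change was 0.31, with 37 of 53 above 0. Groups did not overlap in CPM for 9 of the 53, where 16.4% of all genes had such groups.

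Among the other class I heavy chains 11 of 13 tested genes were above 0 and the median was 0.45. Of the 13, 9 peaked in ΔAgo2 tumor 1, and without it 9 were above 0 with a median of 0.18. H2-T23, the mouse Qa-1 molecule that presents to NK receptors, stood at 78.9, 69.3, 47.4 and 97.9 CPM in the wild-type tumors and at 252, 121, 94.2 and 99.9 CPM in the ΔAgo2 tumors. ΔAgo2 tumor 1 was again far above the rest, and of the others only ΔAgo2 tumor 3 lay below the highest wild-type tumor. The genotype difference for H2-T23 came to 0.95 log2 units (SE 0.34, edgeR adjusted p 0.120). With the GC trend removed it was called, at 1.26 with an edgeR adjusted p of 0.0373, and with only ΔAgo2 tumor 1 left out it was at 0.51 with an edgeR adjusted p of 0.160. With both changes, a setting chosen after seeing the data, it was called at 0.93 (edgeR adjusted p 0.0211). In that fit 12.6% of all genes were called. H2-Q7 and H2-M3, a Qa-2 molecule and a presenter of N-formylated peptides, had log2 fold changes of 0.22 and 0.45 with edgeR adjusted p-values of 0.757 and 0.305, and without ΔAgo2 tumor 1 they were at -0.31 and 0.17. Fcgrt, the neonatal Fc receptor, pairs with the same light chain but presents no peptide, and it had the lowest fold change of this list, -1.03 with an edgeR adjusted p of 0.101.

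In peptide trimming and loading 8 of 10 genes were above 0, with a median of 0.32. Erap1, the aminopeptidase that trims peptides in the endoplasmic reticulum, stood at 54.3, 27.0, 47.6 and 16.3 CPM in the wild-type tumors and at 73.5, 133, 81.8 and 106 CPM in the ΔAgo2 tumors. Every ΔAgo2 tumor was above every wild-type tumor, and ΔAgo2 tumor 1 was the lowest of the 4. In edgeR the difference was 1.43 log2 units (SE 0.36, adjusted p 0.0537), just short of the threshold and the lowest of all 53. It passed without ΔAgo2 tumor 1 (1.54, edgeR adjusted p 0.0366) and with the GC trend removed (0.93, edgeR adjusted p 0.0373). Calr, the chaperone calreticulin, had -0.32 with an edgeR adjusted p of 0.341. Without ΔAgo2 tumor 1, 3 of the 53 genes were called, where 11.0% of all genes were. They were Erap1, Lnpep (1.38, edgeR adjusted p 0.0391), a related aminopeptidase of endosomes, and Fcgrt (-1.39, edgeR adjusted p 0.0280). With the GC trend removed Lnpep was at 0.48 (edgeR adjusted p 0.267) and Fcgrt at -0.59 (edgeR adjusted p 0.166), and with ΔAgo2 tumor 1 also left out they were at 0.60 (edgeR adjusted p 0.10) and -0.84 (edgeR adjusted p 0.0159). Lnpep and Fcgrt were chosen after their values had been seen.

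The constitutive proteasome and its activators had a median of 0.03, with 4 of 7 above 0. Psme1 and Psme2, which form the interferon-inducible activator PA28, had log2 fold changes of -0.02 and 0.43 with edgeR adjusted p-values of 0.971 and 0.443. Of the 7 genes, 6 peaked in ΔAgo2 tumor 1, where 16.1% of all genes tested did. Psme1 and Psme2 were among them, at 440.1 and 284 CPM. Without that tumor Psme1 and Psme2 were at -0.45 and -0.10, and the median of the list was -0.33.

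Of the regulators of class I transcription 10 of 16 were above 0, with a median of 0.11. Irf1, the factor that binds interferon elements of class I promoters, had 0.11 with an edgeR adjusted p of 0.793, and -0.11 without ΔAgo2 tumor 1. Interferon receptors and kinases had a median of 0.32 with 4 of 7 above 0. Ifnb1, which encodes interferon-beta, held 0 counts in 6 tumors and 3 in each of ΔAgo2 tumors 2 and 4, no more than a count of 0 allows.

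**Figure D5:**
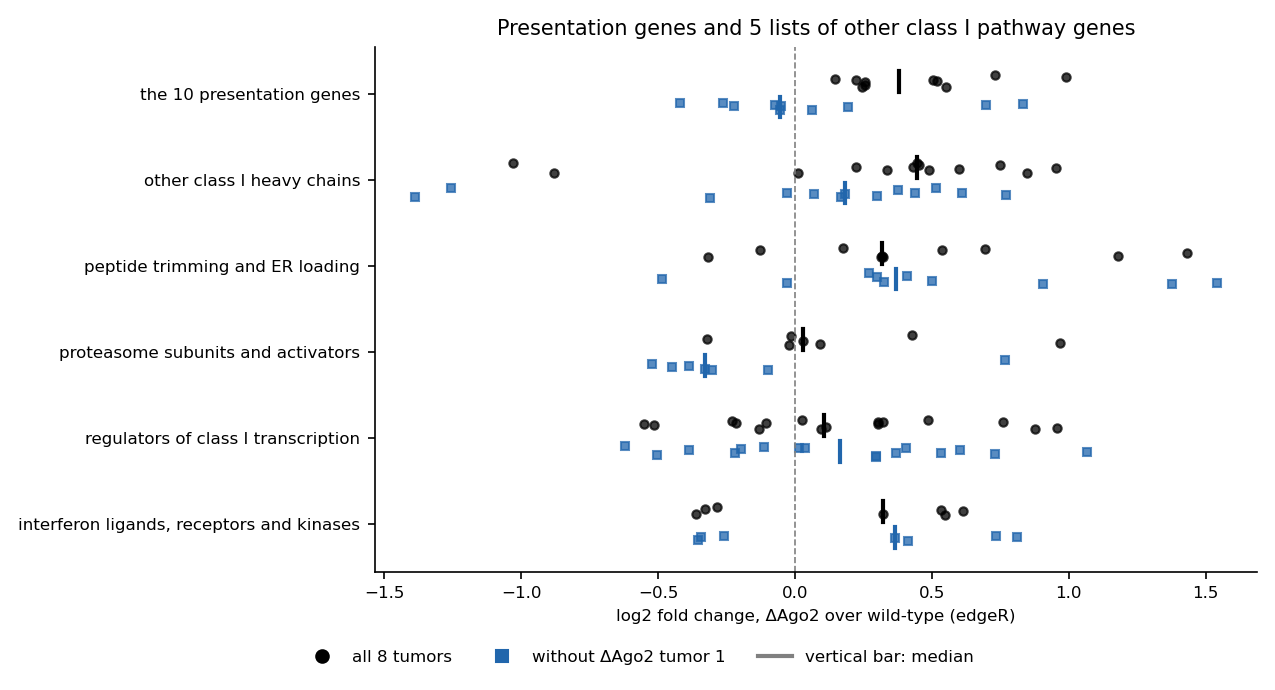
Log2 fold change of ΔAgo2 over wild-type tumors (horizontal axis) for the 10 presentation genes and for the tested genes of 5 other pathway lists, with all 8 tumors (black) and without ΔAgo2 tumor 1 (blue). Vertical bars are medians, which moved from 0.38 to -0.05 for the 10 genes and from 0.03 to -0.33 for the proteasome list.

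The 10 genes varied together across the tumors, with 2 exceptions. Pearson's r over the 8 tumors is given as a description, since all genes of a tumor share its library and depth. It was taken between the log2 CPM of a gene and the mean profile of the other 9. Its values were 0.90 to 0.98 for 8 genes, 0.47 for B2m and 0.26 for Nlrc5. When ΔAgo2 tumor 1 was left out the 8 genes had 0.79 to 0.97, B2m -0.10 and Nlrc5 0.44. Among 13063 other genes with a mean of at least 1 CPM, the 5 most like the mean profile of the 10 were Ube2l6 (r = 0.99), H2-Q6 (0.98), Neurl3 (0.97), Cd300a (0.97) and Dnase1l3 (0.96). Ube2l6, an interferon-inducible conjugating enzyme for ISG15, stood at 49.5, 54.2, 33.1 and 70.8 CPM in the wild-type tumors and at 133, 63.2, 56.8 and 54.3 CPM in the ΔAgo2 tumors, with the same highest and lowest tumors as most of the 10 genes.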

How the data were processed

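RNA of 8 LLC tumors, 4 per genotype and each from a separate biological replicate, was sequenced by the study as stranded mRNA libraries. The deposited counts are whole-number read counts per gene, which the authors did not normalize. The deposited TPM values were divided by gene length and scaled to 1e+06 per library by the authors, with no definition of length given. The submitters' processing notes name STAR and mm10, and the paper's passage on cultured cells names featureCounts after removal of ribosomal RNA. The strand setting and the treatment of multi-mapping reads in the counting are not given in the sources used here. All columns belonged to these 8 tumors.

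Counts were tested with edgeR 4.0.16 (R 4.3.3), using the quasi-likelihood test after filterByExpr and TMM scaling, with Benjamini-Hochberg adjustment over 16061 genes and a threshold of 0.05. CPM were taken on TMM-scaled totals, with a prior count of 2 where log2 CPM were used. TPM were tested with limma 3.58.1 on log2(TPM + 1), keeping genes of at least 0.5 TPM in 4 libraries. The GC trend was fitted in each library, on genes averaging 50 counts or more. Ratios were compared by exact two-sided permutation (scipy 1.17.1, Python 3.11.15). Other scalings and filters, a replicate block, DESeq2 1.42.0, limma voom and leaving out each tumor made up the 23 alternatives. The analysis was tested on simulated data. Of 55487 identifiers, 55094 (99.29%) matched GENCODE M21 (GRCm38). Promoter sequences are from RefSeq (GRCm38.p6).

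The 10 genes, the 5 pathway lists (59 genes) and the 13 marker lists (68 genes) were chosen with earlier results of these data known. Named were all 10 genes, Ago2, any listed pathway gene past the threshold, Irf1, Ifng, Psme1, Psme2, Erap1, Calr, H2-T23, H2-Q7 and H2-M3, and the 5 genes most like the mean standardised profile of the 10. Another gene of this rule is not reported here. Totals of 7903288 to 268564145 counts per tumor set the precision, and floors and p-values cover counting error and the spread between these tumors only.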

Additional observations from a re-analysis of the deposited data

Results flagged for a closer look

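In 18 of 78 groups of 4 tumors examined, 1 tumor stood apart from the other 3 of its genotype by Dixon's test at the 95% level, where chance gives about 1 in 20 groups, here 3.9. Of the 18, 16 concerned ΔAgo2 tumor 1, and the values that follow for it are set against the range of the other 3 ΔAgo2 tumors. These genes vary together across the tumors, so the 18 are not independent of each other.

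Among the 10 presentation genes, 7 stood apart in ΔAgo2 tumor 1. H2-K1 was at 907 CPM against 347 to 401 CPM, H2-D1 at 2520.4 CPM against 1070.4 to 1291 CPM and B2m at 2098 CPM against 1063 to 1179 CPM. Tapbp was at 793 CPM against 404 to 468 CPM. Psmb8 was at 175 CPM against 60.7 to 71.5 CPM, Psmb9 at 72.2 CPM against 19.3 to 21.04 CPM and Psmb10 at 312 CPM against 89.0 to 102 CPM. Tap1, Tap2 and Nlrc5 did not pass this test in that tumor.

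Not every gene of the 5 pathway lists was put to this test. Of those that were, some stood apart in the same tumor. Irf1 was at 165 CPM against 94.9 to 104 CPM, and the activator subunits Psme1 and Psme2 were at 440.1 CPM against 172 to 216 CPM and 284 CPM against 97.6 to 113 CPM. H2-Q7 was at 51.8 CPM against 16.1 to 20.96 CPM and H2-M3 at 23.3 CPM against 11.6 to 13.6 CPM. The genes not examined include some that were also far higher in this tumor. H2-T22 was at 165 CPM against 76.5 to 79.5 CPM. The proteasome genes Psmb6 and Pomp were at 312 CPM against 119 to 146 CPM and 220 CPM against 88.6 to 106 CPM. Ifng was at 0.718 CPM against 0.102 to 0.179 CPM, and in wild-type tumor 4 it was at 0.717 CPM against 0.0953 to 0.189 CPM in the other wild-type tumors, there from 5 counts.

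Of the marker lists, summed T cell markers in ΔAgo2 tumor 1 were at 26.2 CPM against 4.74 to 7.58 CPM, CD8 and cytotoxic markers at 48.2 CPM against 22.1 to 24.6 CPM and B cell markers at 4.31 CPM against 2.86 to 3.07 CPM. Skeletal muscle markers in wild-type tumor 3 were at 2965 CPM against 196 to 413 CPM in the other wild-type tumors. The part of these cells in the values of the presentation genes was not tested.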

How the results depend on the processing

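Over 23 alternatives the 10 genes gave 230 log2 fold changes, from -0.42 to 1.35, of which 9 changed sign and 4 were called. H2-K1, H2-D1, B2m and Nlrc5 kept their sign in all 23. Leaving out 1 tumor at a time gave -0.055 to 0.39 for Tap1, -0.074 to 0.34 for Tap2, -0.052 to 0.35 for Tapbp, -0.26 to 0.59 for Psmb8, -0.22 to 0.87 for Psmb9 and -0.42 to 0.55 for Psmb10. All of the lowest values came without ΔAgo2 tumor 1, and Tap2 was also below 0 without wild-type tumor 3 (-0.014). With limma voom and quality weights Psmb8 was at -0.012 and Psmb10 at -0.050. The number of the 10 genes called, 0 in edgeR with all tumors, was 0 to 1 with 1 tumor left out, the 1 being B2m without wild-type tumor 1, 1 with DESeq2 (B2m), and 2 with the GC trend removed and ΔAgo2 tumor 1 left out (Tap2 and Tapbp), a setting chosen after seeing the data. The cause was not tested. No ratio changed sign with 1 tumor left out. The ratios were not computed with the GC trend removed, so their sign under that setting was not tested. In the edgeR fits of single genes, removing the GC trend moved Psmb10 from 0.26 to 0.72 and Psmb7 from 0.97 to 0.50. It moved B2m from 0.99 to 0.53, H2-K1 from 0.52 to 0.82 and H2-D1 from 0.55 to 0.94. B2m then lay below both heavy chains, where it lay above both with the trend kept. With 1 tumor left out or the replicate block the exact test of a ratio cannot go below 0.0571 or 0.125, so no ratio could be called there.

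Of the 53 other pathway genes tested, 0 were called in edgeR with all tumors, 2 with no count filter (of 59 then tested), 2 with the GC trend removed, 1 with counts thinned to equal depth, 0 to 3 with 1 tumor left out (3 without ΔAgo2 tumor 1, 1 without wild-type tumor 1 or 3), 6 with the GC trend removed and ΔAgo2 tumor 1 left out, 12 with limma voom and 4 with DESeq2. Over all genes 560 of 16061 were called, against 983 of 30344 with no count filter. With the GC trend removed 581 of 16061 were called, and at equal depth 514 of 12640. With 1 tumor left out the lowest was 88 of 16281 (ΔAgo2 tumor 4) and the highest 1793 of 16301 (ΔAgo2 tumor 1). Without wild-type tumors 1 and 3 the counts were 661 of 16307 and 934 of 16431. With the GC trend removed and ΔAgo2 tumor 1 left out 2052 of 16301 were called. Of 16061 genes, limma voom called 4476 and DESeq2 2274. Limma called 153 of 15410 on log2(TPM + 1), 107 of 15410 on log2(TPM + 0.1) and 77 of 30111 on log2(TPM + 1) with no filter.

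Replicate numbers did not pair the tumors, since the deviations of same-numbered tumors correlated at -0.236, 0.103, -0.0448 and -0.29. With the replicate block 70 of 16061 genes were called, and 285 of 16061 with the block and the GC trend removed. Of the 10 genes 0 were called in both, and of the other 53 there were 0 and 1. At 4 tumors per genotype the exact test cannot go below 0.0286, and the 95% interval of B2m, the largest of the 10 differences, still spanned 0.24 to 1.74.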

Other observations

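The other cell type markers had ranges that overlapped between genotypes, for fibroblasts only at their ends. Summed B cell markers ran from 1.72 to 4.15 CPM in the wild-type tumors and 2.86 to 4.31 CPM in the ΔAgo2 tumors. Dendritic cell markers, of cells that present antigen on class I to CD8 T cells, ran from 22.9 to 37.1 CPM in the wild-type tumors and 30.4 to 43.5 CPM in the ΔAgo2 tumors, and neutrophil markers from 23.3 to 58.1 CPM in the wild-type tumors and 38.3 to 63.5 CPM in the ΔAgo2 tumors. Fibroblast markers ran from 795 to 1725 CPM in the wild-type tumors and 651 to 795 CPM in the ΔAgo2 tumors, and endothelial markers from 82.5 to 127 CPM in the wild-type tumors and 89.7 to 115 CPM in the ΔAgo2 tumors.

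Among the 53 tested genes outside the 10, the 9 whose CPM groups did not overlap were Hfe, Erap1, Tapbpl, Psmb7, Psme3, Rfxank, Ifngr1, Ifngr2 and Ifnar2. Over all genes 16.4% had such groups, a share close to that of the 53, so nothing is read from the count. The genes described here were chosen after their values had been seen. Psmb7, the constitutive subunit that Psmb10 replaces, stood at 127, 54.8, 124 and 61.9 CPM in the wild-type tumors and at 248, 149.7, 155 and 167 CPM in the ΔAgo2 tumors, a log2 fold change of 0.97 (edgeR adjusted p 0.0989). It was at 0.50 with the GC trend removed and at 0.14 with ΔAgo2 tumor 1 also left out (edgeR adjusted p 0.321 and 0.588). Tapbpl, a tapasin-related peptide editor, stood at 17.02, 15.4, 10.5 and 12.0 CPM in the wild-type tumors and at 20.97, 21.8, 18.1 and 18.8 CPM in the ΔAgo2 tumors, a log2 fold change of 0.54 (edgeR adjusted p 0.153). The chains of the interferon-gamma receptor, Ifngr1 and Ifngr2, had log2 fold changes of -0.33 and 0.55 with edgeR adjusted p-values of 0.215 and 0.151. Lnpep, whose groups overlapped, stood at 57.3, 50.2, 76.9 and 35.7 CPM in the wild-type tumors and at 68.0, 212, 78.6 and 142 CPM in the ΔAgo2 tumors, with its lowest ΔAgo2 value in ΔAgo2 tumor 1.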
